A study of Homo sapiens with 4 samples.

Results

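The Hippo pathway ends in a small set of nuclear proteins, and transcripts of 10 genes of that set were followed here in human embryonic stem cells driven toward mesoderm with and without a Wnt inhibitor. The genes were YAP1, WWTR1, TEAD1, TEAD2, TEAD3, TEAD4, LATS1, LATS2, AMOTL2 and VGLL4. They were taken as a set of known pathway genes, with earlier results of these data known, and by its symbol each matched 1 of the 58365 rows of the deposited expression table. All 10 passed the filter of at least 1 FPKM in at least 2 samples, as did 14278 genes in all. FPKM, the number of fragments scaled by transcript length and by the mapped fragments of the library, corrects for gene length and library size, but not for differences between samples in what the rest of the RNA is made of.

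In the Hippo pathway, the kinases LATS1 and LATS2 phosphorylate the coactivators YAP (from YAP1) and TAZ (from WWTR1), which then stay in the cytoplasm or are degraded. Unphosphorylated YAP and TAZ enter the nucleus, where they lack a DNA-binding domain of their own and act through the TEAD transcription factors. The pathway responds to cell density, junctions, polarity and tension, and it is known in human pluripotent stem cells for its influence on self-renewal and on the choice to leave pluripotency. Much of this control is exerted on protein phosphorylation and location, which RNA levels do not report.

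The cells were of the H1 line, an established human embryonic stem cell line, collected at day 2 of hematopoietic differentiation. All 4 samples were cultured for 2 days in Custom mTeSR1 with activin A at 40 ng/ml and BMP4 at 50 ng/ml, the doses the sample descriptions give; the methods of the study assign the 2 doses the other way round. The DMSO group (n = 2) is the control without inhibitor, and the IWP2 group (n = 2) also received IWP2, which blocks Porcupine, the enzyme that acylates Wnt ligands before their secretion. A dose of IWP2 is not given in the sample descriptions, and neither source says whether the 2 samples of a group were separate cultures, so the tests measure only the spread between these samples. The comparison asks how the pathway's transcripts differ when Wnt secretion is blocked while mesoderm is being induced.

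The labelled cell state was checked against marker lists. Transcripts of 4 Wnt response genes (AXIN2, LEF1, SP5, NKD1) summed to 115 and 124 FPKM in the DMSO samples and 8.67 and 7.74 FPKM with IWP2, and all 4 fell. All 6 primitive streak and mesoderm genes were expressed in DMSO and fell with IWP2 (summed level 883 and 1107 FPKM in DMSO, 47.3 and 51.3 with IWP2). Among 6 pluripotency genes, 3 rose and 1 fell (1317 and 1131 FPKM in DMSO, 2411 and 2406 with IWP2). POU5F1, SOX2 and DPPA4 rose, TDGF1 fell, and NANOG and LIN28A did not pass the test. POU5F1 made up the largest part of the sum, at 751 and 571 FPKM in DMSO against 1854 and 1844 with IWP2. SOX2 stood at 0.193 and 0.174 FPKM in DMSO against 35.6 and 36.1 with IWP2. TDGF1 stood at 203 and 221 FPKM in DMSO against 103 and 98.6 with IWP2. Of 3 endoderm genes, 2 fell (185 and 122 FPKM against 83.8 and 99.6). Most of that sum was SOX17, which did not pass the test (155 and 104 FPKM against 79.7 and 94.9). Of 6 amnion and trophoblast genes, 2 rose and 1 fell (69.1 and 68.9 FPKM against 80.8 and 87.1). NES was the only tested gene of 3 neural genes and rose, while PAX6 and SOX1 were below the filter. KDR and TEK fell among 4 endothelial genes, with PECAM1 and CDH5 at no more than 0.492 FPKM in any sample, and RUNX1 fell among 3 blood genes, with PTPRC at or near 0. SOX2 and KRT7 passed the filter through the IWP2 samples alone. LEF1, SP5, MESP1, GSC, FOXA2, CDX2 and RUNX1 passed it through the DMSO samples alone. All of these had to differ between the groups, so their rises and falls are a description. By the test given below, 7.23% of all genes tested rose and 8.99% fell. The cell states of the groups therefore differed along with the treatment, and the part that this difference has in the values below was not tested. In RNA from a whole culture, fewer cells of one type and less RNA per cell cannot be told apart.

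With IWP2 the TEAD1 transcript fell and the TEAD3 transcript rose, and the TEAD paralogs were present in different proportions in the 2 groups. These proportions were not tested. In alternative settings, the fall of TEAD1 was called in 10 of 11 and the rise of TEAD3 in 6. TEAD2 fell slightly, and YAP1, WWTR1, TEAD4, LATS1, LATS2, AMOTL2 and VGLL4 did not pass the test. Per gene, log2(FPKM + 1) was compared between the groups with limma, and a gene was called at a Benjamini-Hochberg adjusted p below 0.05 over all 14278 genes (two-sided). Fold changes are IWP2 minus DMSO on that log2 scale, which understates the change of genes with low values. By this test 2316 genes (16.2%) were called, 1032 higher (7.23%) and 1284 lower (8.99%), and the groups did not overlap in 60.2% of genes. Against this, 3 of the 10 pathway genes were called, 1 higher (TEAD3) and 2 lower (TEAD1 and TEAD2), and 8 of 10 did not overlap between the groups, 3 higher and 5 lower. The median log2 fold change of the 10 genes was -0.12, beside -0.016 for all genes tested.

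**Figure D1:**
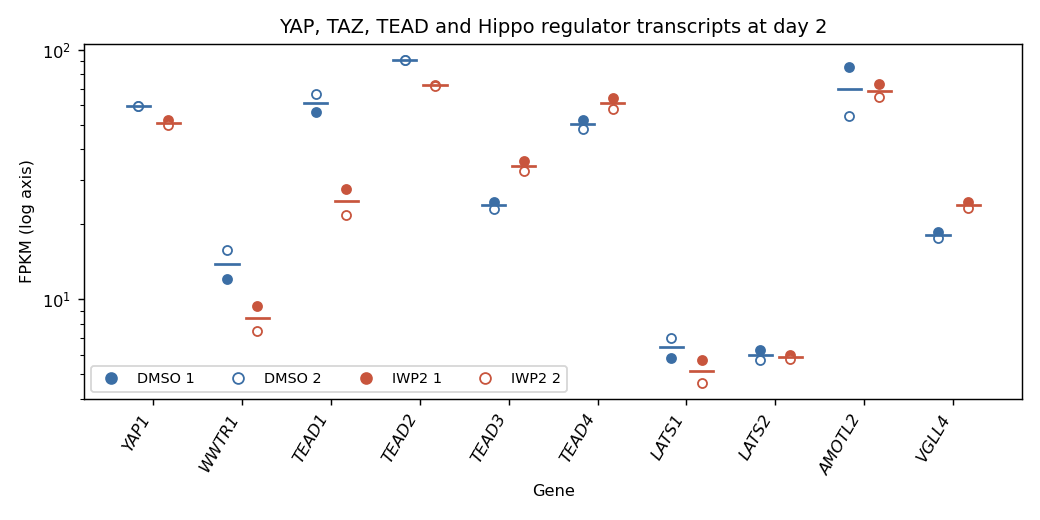
FPKM of the 10 genes on a log axis in each sample (blue, DMSO; red, IWP2; filled, replicate 1; open, replicate 2), with a line at each group's mean. TEAD1 shows the widest gap between the groups, from 56.3 and 66.9 FPKM in DMSO to 27.8 and 21.8 with IWP2, whereas the values of LATS2 and AMOTL2 overlap.

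YAP1, which encodes the coactivator YAP, lies on chromosome 11 (chr11:102110461-102233423, plus strand, GRCh38). Its FPKM was 59.8 in both DMSO samples and 52.2 and 50.0 with IWP2. Both treated samples were below both controls, yet the difference was small (log2 fold change -0.22, SE 0.080, 95% confidence interval -0.42 to -0.023, adjusted p = 0.127 by limma) and was not called. The promoter of YAP1 is shown because it holds a TEAD motif of its own. The following 200 bases lie 240 to 41 bases before the RefSeq start (chr11:102110207-102110406, plus strand, GRCh38.p14), with the TEAD motif GGAATG in capitals.

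YAP1 promoter: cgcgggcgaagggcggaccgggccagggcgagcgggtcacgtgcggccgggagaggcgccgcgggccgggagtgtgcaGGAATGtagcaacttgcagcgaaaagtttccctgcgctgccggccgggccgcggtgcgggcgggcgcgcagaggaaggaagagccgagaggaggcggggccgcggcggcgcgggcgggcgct

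The motif begins 162 bases before the start. GGAATG, or CATTCC on the other strand, was found in the 250 bases before the start in 11.9% of 35116 RefSeq promoters, so a single copy is a frequent feature and says nothing of binding. Promoters of 8 of the 10 genes were matched by symbol in that table, 16 promoters in all, and 2 of the 16 held the motif, that of YAP1 and one of AMOTL2. TEAD1 and TEAD4 had no entry.

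WWTR1, which encodes TAZ (chr3:149517235-149736714, minus strand), was expressed at a lower level than YAP1. Its FPKM was 12.1 and 15.7 in DMSO and 9.41 and 7.48 with IWP2. The treated samples were both below the controls, but the replicates of each group were themselves apart, and the log2 fold change of -0.65 (SE 0.175, 95% confidence interval -1.10 to -0.21) did not pass the test (adjusted p = 0.0635, limma). YAP1 exceeded WWTR1 4.96-fold and 3.801-fold in the DMSO samples and 5.55-fold and 6.68-fold in the IWP2 samples. Summed over both coactivators the level was 71.9 and 75.6 FPKM in DMSO and 61.6 and 57.5 FPKM with IWP2.

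The TEAD genes encode the DNA-binding partners of YAP and TAZ, and all 4 paralogs were expressed. TEAD1 (chr11:12674591-12944483, plus strand) was at 56.3 and 66.9 FPKM in DMSO and at 27.8 and 21.8 FPKM with IWP2. The groups were far apart relative to their replicates, the DMSO mean being 2.48-fold that of IWP2 (log2 fold change -1.28, SE 0.15, 95% confidence interval -1.66 to -0.91, adjusted p = 0.00596, limma). Ranked by log2 fold change, TEAD1 stood at percentile 3.02 of all genes tested, counted from the most reduced. It was the only one of the 10 genes whose call held whichever library was left out.

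TEAD2 (chr19:49340595-49362457, minus strand) had the highest mean level of the 10 genes in both groups. Its FPKM was 90.8 and 91.1 in DMSO and 72.4 and 71.9 with IWP2. The replicates were nearly equal within each group, and the small difference was called (1.26-fold higher mean in DMSO, log2 fold change -0.33, SE 0.075, 95% confidence interval -0.52 to -0.14, adjusted p = 0.0410, limma). The call held in only 2 of the 11 alternatives. It was lost when any of the 4 libraries was left out (adjusted p up to 0.199, limma), under both rescalings of the samples, without a filter and without a trend in the variance prior.

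TEAD3 (chr6:35473597-35497076, minus strand) moved in the other direction. Its FPKM was 24.7 and 23.0 in DMSO and 35.9 and 32.7 with IWP2. Both treated samples were above both controls, and the IWP2 mean was 1.44-fold the DMSO mean (log2 fold change 0.51, SE 0.098, 95% confidence interval 0.26 to 0.75, adjusted p = 0.0258, limma). The direction held in all 11 alternatives, from 0.44 to 0.57, but the call was lost when any 1 library was left out (adjusted p up to 0.168).

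TEAD4 (chr12:2959330-3040673, plus strand) was at 52.4 and 48.3 FPKM in DMSO and 64.4 and 57.8 FPKM with IWP2. Its log2 fold change of 0.27 (SE 0.097, 95% confidence interval 0.029 to 0.52) was not called (adjusted p = 0.126, limma), although the groups did not overlap.

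**Figure D2:**
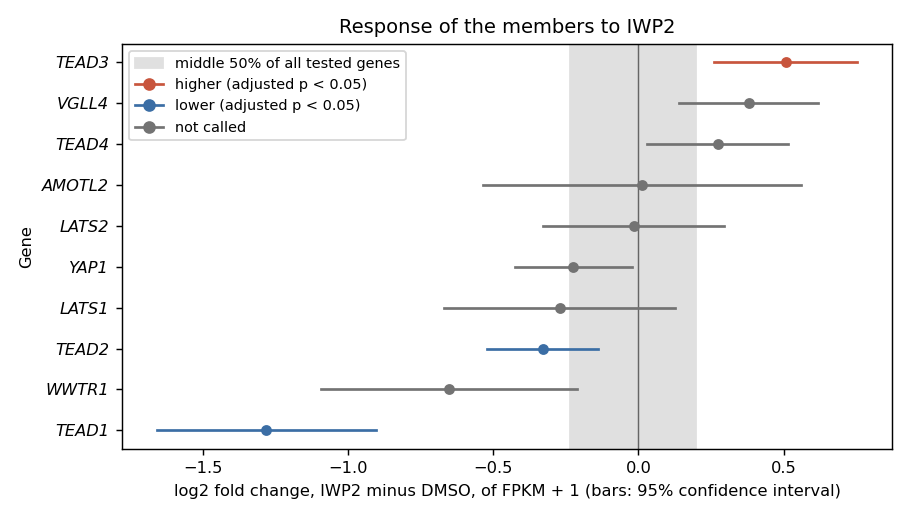
Log2 fold change of each of the 10 genes, IWP2 minus DMSO, of FPKM + 1, with its 95% confidence interval; the grey band spans the middle 50% of all 14278 genes tested. TEAD1 and TEAD2 are called lower (blue) and TEAD3 higher (red), and the intervals of LATS1, LATS2 and AMOTL2 include 0.

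Because the paralogs share YAP and TAZ as partners, their shares of the summed TEAD level were also computed. The sum was 224 and 229 FPKM in DMSO and 200 and 184 FPKM with IWP2. TEAD1 supplied 25.1% and 29.2% of the sum in DMSO and 13.9% and 11.8% with IWP2. TEAD3 supplied 10.999% and 10.01% in DMSO and 17.9% and 17.7% with IWP2. TEAD2 remained the most abundant paralog, at 40.5% and 39.7% of the sum in DMSO and 36.1% and 39.0% with IWP2, and TEAD4 took 23.4% and 21.1% against 32.1% and 31.4%. In the DMSO samples TEAD1 was 2.28-fold and 2.91-fold the level of TEAD3, and in the IWP2 samples it was 0.774 and 0.668 of that level, so TEAD1 exceeded TEAD3 in both DMSO samples and TEAD3 exceeded TEAD1 in both IWP2 samples. The shares are given as a description, without a test. Relative to YAP1 and WWTR1 together, the summed TEAD level was 3.12-fold and 3.03-fold in DMSO and 3.26-fold and 3.20-fold with IWP2.

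**Figure D3:**
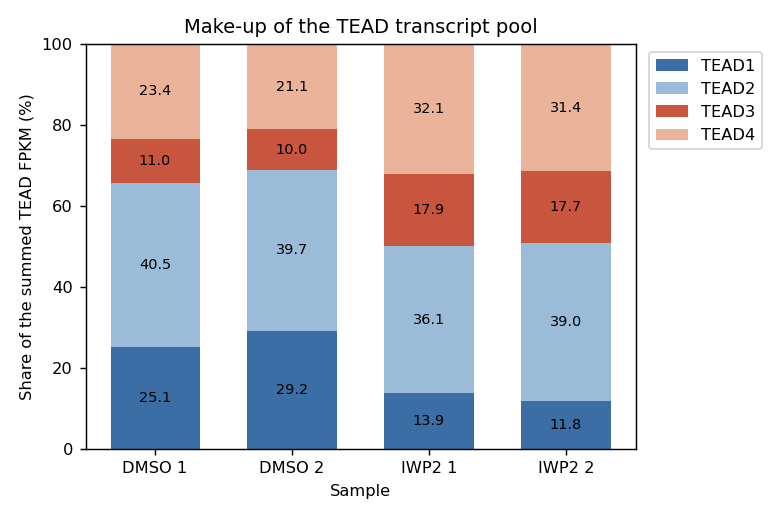
Share of the summed TEAD1 to TEAD4 FPKM, in percent, taken by each paralog in each of the 4 samples; each bar adds to the whole. TEAD1 takes 25.1% and 29.2% of the bar in DMSO and 13.9% and 11.8% with IWP2, and TEAD3 and TEAD4 take more in both IWP2 samples than in either DMSO sample.

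The inhibitory kinases LATS1 and LATS2 had the lowest levels of the 10 genes, and neither was called. LATS1 (chr6:149658153-149718256, minus strand) was at 5.85 and 7.03 FPKM in DMSO and 5.70 and 4.63 FPKM with IWP2 (log2 fold change -0.27, SE 0.159, 95% confidence interval -0.67 to 0.13, adjusted p = 0.314, limma). LATS2 (chr13:20973032-21061547, minus strand) was at 6.24 and 5.71 FPKM in DMSO and 5.99 and 5.79 FPKM with IWP2. Its treated values lay between the controls (log2 fold change -0.02, 95% confidence interval -0.33 to 0.30, adjusted p = 0.947, limma), and its sign turned in 4 alternatives. LATS1 was 0.937-fold and 1.23-fold the level of LATS2 in DMSO and 0.952-fold and 0.799-fold with IWP2, so neither kinase was the more abundant in all samples.

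AMOTL2, an angiomotin family protein that binds YAP and is itself a known YAP target (chr3:134355874-134375479, minus strand), was at 85.4 and 54.3 FPKM in DMSO and 73.1 and 64.6 FPKM with IWP2. The DMSO replicates differed more from each other than the group means did. The log2 fold change of 0.01 had the widest interval of the 10 genes (-0.54 to 0.56, adjusted p = 0.979, limma). A difference within that interval, in either direction, is therefore not excluded by these samples.

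VGLL4, a cofactor that occupies TEAD and opposes YAP (chr3:11556070-11771350, minus strand), was at 18.6 and 17.6 FPKM in DMSO and 24.5 and 23.2 FPKM with IWP2. Both treated samples were above both controls, by 1.32-fold in the means, and the log2 fold change of 0.38 (SE 0.095, 95% confidence interval 0.14 to 0.62) was just short of a call (adjusted p = 0.0535, limma). It passed under 3 of the 11 alternatives, both rescalings and the filter at 5 FPKM. Exons of VGLL4 overlap those of ATG7 on the opposite strand, which was at 9.56 to 10.7 FPKM, and the counting is not stated to use strand, so the values of VGLL4 may hold reads of ATG7. TEAD2 overlaps CD37 in the same way, with CD37 at no more than 2.03 FPKM, and the genes overlapping YAP1, WWTR1, LATS1 and AMOTL2 were each below 1 FPKM.

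The rest of the pathway was read from a list of 33 other Hippo genes, of which 30 were tested. FAT4 and VGLL1 were below the filter, and VGLL2 was listed at 0 in all 4 samples. Of the 30, 4 rose, 4 fell and 22 were not called, with a median log2 fold change of -0.083, and 22 did not overlap between the groups. Over all genes tested, 7.23% rose, 8.99% fell and 60.2% did not overlap. The 4 that rose include VGLL3, which passed the filter through the IWP2 samples alone and so had to differ. Of the core of the kinase cascade, STK3 and STK4 (MST2 and MST1, which activate LATS), their scaffold SAV1, the LATS cofactors MOB1A and MOB1B, and the upstream activator NF2, none of the 6 genes was called. These were named for their role, outside the rule for named genes, and 16.2% of all genes were called. Leaving out 1 library gave, in place of 8 calls, 4 (without DMSO replicate 1), 5 (without DMSO replicate 2), 1 (without IWP2 replicate 1) and 2 (without IWP2 replicate 2). Of the 8, DCHS1 was called each time, WWC1 in 3 of 4 such fits, VGLL3 in 2, FAT1 and AMOTL1 in 1 each, and WWC3, TAOK3 and MAP4K4 in none.

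DCHS1, a giant protocadherin, fell furthest in this list, from 8.38 and 8.67 FPKM in DMSO to 2.44 and 1.92 FPKM with IWP2 (log2 fold change -1.59, SE 0.146, adjusted p = 0.00305, limma). FAT1, a protocadherin of the FAT family, rose from 17.3 and 15.1 FPKM to 24.8 and 26.7 FPKM (log2 fold change 0.64, SE 0.111, adjusted p = 0.0188, limma). WWC1, known as KIBRA, an upstream activator of LATS, rose from 5.76 and 5.84 FPKM to 15.6 and 12.8 FPKM (log2 fold change 1.15, SE 0.134, adjusted p = 0.00587, limma). Its paralog WWC3 rose by less, with a log2 fold change of 0.49 (adjusted p = 0.0463, limma).

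The kinase MAP4K4, which can act on LATS in parallel with the MST kinases and had the highest mean over all 4 samples in the list, fell from 85.4 and 84.0 FPKM to 58.0 and 51.4 FPKM (log2 fold change -0.62, SE 0.0927, adjusted p = 0.0119, limma). TAOK3, of a kinase family upstream of MST, fell from 4.42 and 5.90 FPKM to 2.57 and 1.30 FPKM (log2 fold change -1.09, SE 0.26, adjusted p = 0.0462, limma). AMOTL1, the paralog of AMOTL2, fell from 30.4 and 25.8 FPKM to 18.8 and 16.9 FPKM (log2 fold change -0.62, SE 0.121, adjusted p = 0.0258, limma). VGLL3, a TEAD cofactor like VGLL4, was at 0.327 and 0.244 FPKM in DMSO and 2.66 and 2.17 FPKM with IWP2, which is given as a description without its test. STRN4, a subunit of the phosphatase complex that counters MST and the next by that mean, was at 59.9 and 61.4 FPKM in DMSO and 61.7 and 58.2 FPKM with IWP2 and was not called (adjusted p = 0.914, limma).

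**Figure D4:**
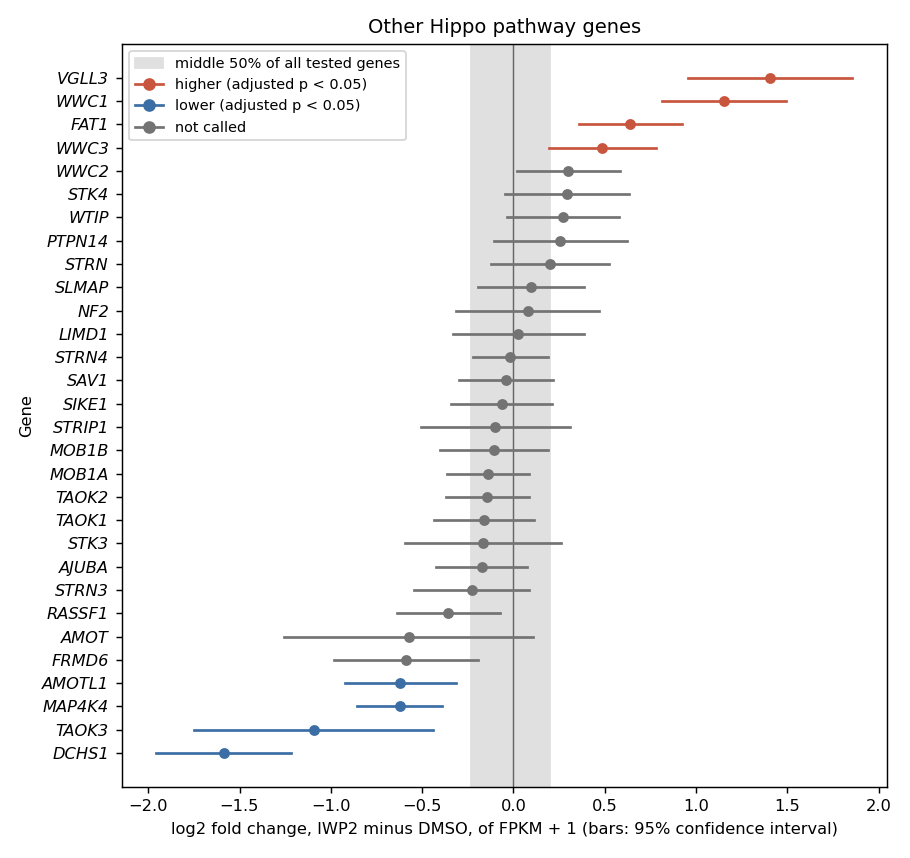
Log2 fold change of the 30 tested genes of the other Hippo list, IWP2 minus DMSO, of FPKM + 1, with 95% confidence intervals and the middle 50% of all tested genes in grey. VGLL3 (which entered through the IWP2 samples alone), WWC1, FAT1 and WWC3 are called higher (red), and AMOTL1, MAP4K4, TAOK3 and DCHS1 lower (blue).

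Among known YAP and TEAD target genes, CTGF, CYR61 and IGFBP3 rose most with IWP2, and GADD45A fell most. Of 22 listed targets 20 were tested, 7 rose, 2 fell and 11 were not called, with a median log2 fold change of 0.38, while 7.23% of all genes tested rose and 8.99% fell. AMOTL2 and LATS2, described above, are in this list, and PTPN14 is also in the list of other Hippo genes. NT5E and TGFB2 were below the filter. Without DMSO replicate 1 or 2, 7 and 6 targets were called, and without either IWP2 library 4 were. CTGF, CYR61, IGFBP3 and GADD45A were called whichever library was left out, NUAK2 and AXL in 2 of 4 such fits, ANKRD1 in 1, and FJX1 and CCDC80 in none.

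CTGF, a secreted matricellular protein and the most widely used YAP readout (chr6:131948176-131951373), was at 15.7 and 10.03 FPKM in DMSO and at 220 and 244 FPKM with IWP2. The IWP2 mean was 18.0-fold the DMSO mean (log2 fold change 4.10, SE 0.205, 95% confidence interval 3.59 to 4.61, adjusted p = 0.00051, limma). CYR61, of the same protein family, rose from 20.7 and 13.5 FPKM to 136 and 143 FPKM, an 8.19-fold difference in means (log2 fold change 2.99, SE 0.196, adjusted p = 0.00111, limma). IGFBP3, which binds insulin-like growth factors, rose from 2.18 and 1.49 FPKM to 16.4 and 18.3 FPKM, 9.46-fold in the means (log2 fold change 2.70, SE 0.166, adjusted p = 0.000897, limma). In each of the 3 genes the difference was larger than the spread between replicates. The treated samples were close to each other, while DMSO replicate 1 was above DMSO replicate 2 in each gene.

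NUAK2, an AMPK-related kinase, rose from 5.997 and 4.25 FPKM to 10.9 and 10.6 FPKM (log2 fold change 0.95, SE 0.17, adjusted p = 0.01998, limma). The other 3 targets that rose were AXL, FJX1 and ANKRD1, named here after their values were seen, with log2 fold changes of 0.91, 0.72 and 0.50. ANKRD1 was at 28.8 and 23.6 FPKM in DMSO and 37.4 and 37.2 FPKM with IWP2 (adjusted p = 0.0458, limma), a far smaller change than in CTGF and CYR61, which like ANKRD1 are commonly used as YAP readouts. GADD45A, a growth arrest and DNA damage gene, fell from 94.4 and 66.8 FPKM to 24.5 FPKM in both IWP2 samples (log2 fold change -1.66, SE 0.17, adjusted p = 0.00405, limma). CCDC80, a matrix protein, fell from 2.27 and 2.37 FPKM to 1.15 and 0.782 FPKM (log2 fold change -0.76, SE 0.177, adjusted p = 0.0427, limma).

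**Figure D5:**
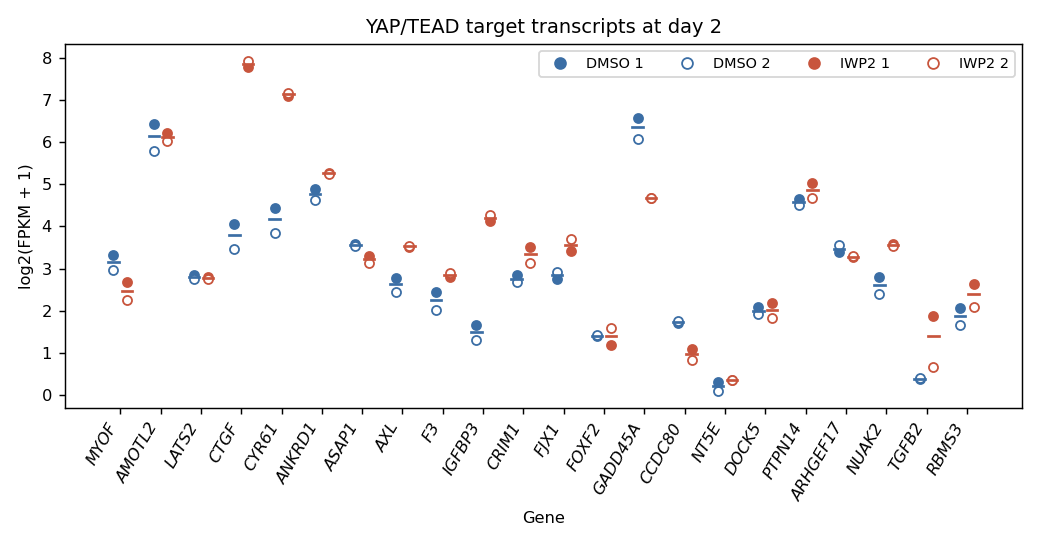
log2(FPKM + 1) of the 22 listed YAP and TEAD target genes in each sample (blue, DMSO; red, IWP2; filled, replicate 1; open, replicate 2), with a line at each group's mean. CTGF, CYR61 and IGFBP3 stand far higher in both IWP2 samples, GADD45A lower, and LATS2 and AMOTL2 overlap.

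The promoters of the targets are shown because TEAD proteins recognise GGAATG. The stretch of CTGF covers 240 to 41 bases before the RefSeq start (chr6:131951413-131951612, minus strand), and 30 bases each are given for ANKRD1 (chr10:90921198-90921227, minus strand) and for one AMOTL2 promoter (chr3:134374499-134374528, minus strand). Both 30-base stretches overlap annotated exons of transcripts of the same gene. Each lies within its annotated gene, before a start listed inside that gene. All are GRCh38.p14, read 5′ to 3′ on the gene's strand, with GGAATG or CATTCC in capitals.

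CTGF promoter: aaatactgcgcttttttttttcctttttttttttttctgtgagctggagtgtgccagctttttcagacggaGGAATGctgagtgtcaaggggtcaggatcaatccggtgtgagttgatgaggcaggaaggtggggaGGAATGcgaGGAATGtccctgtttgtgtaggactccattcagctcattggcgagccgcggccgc
ANKRD1 promoter: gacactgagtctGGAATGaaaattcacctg
AMOTL2 promoter: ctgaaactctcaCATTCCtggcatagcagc

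The 3 copies in CTGF begin 169, 104 and 95 bases before the start, and 0.0826% of RefSeq promoters hold 3 or more. ANKRD1 holds copies 220 and 128 bases before the start, of which the latter is shown, and NUAK2 holds copies at 197 and 18 bases. At least 2 copies occur in 0.94% of promoters. In all, 16 of the 22 targets had an entry, and 8 of their 18 promoters held the motif, beside 11.9% of all promoters. Of the targets with 1 copy, AXL was called higher (log2 fold change 0.91), AMOTL2, FOXF2 and PTPN14 were not called, and TGFB2 was not tested. ANKRD1 with its 2 copies had a log2 fold change of 0.50 against 4.10 in CTGF. IGFBP3 and FJX1, which rose, and CCDC80, which fell, have promoters without the motif, and CYR61 and GADD45A had no entry. A match to these letters is a description of the sequence and not of TEAD binding in these cells.

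Cell junctions and apical polarity complexes feed into the Hippo pathway upstream, and 18 such genes were followed. Of these 6 rose, none fell and 12 were not called, with a median log2 fold change of 0.41, while 7.23% of all genes tested rose and 8.99% fell. CDH1, encoding E-cadherin, rose from 32.6 and 29.7 FPKM in DMSO to 120 and 124 FPKM with IWP2 (log2 fold change 1.94, SE 0.0874, adjusted p = 0.000392, limma). The tight junction genes MARVELD3 (6.03 and 2.29 FPKM against 12.3 and 13.2, adjusted p = 0.0440) and OCLN (5.59 and 3.02 against 8.79 and 11.3, adjusted p = 0.0497) and the polarity gene CRB3 (9.51 and 6.04 against 14.6 and 15.4, adjusted p = 0.0414) also rose by limma. In the same 3 genes the DMSO replicates were well apart. TJP1 and LLGL2, named after their values were seen, rose with log2 fold changes of 0.44 and 0.69. The most highly expressed genes of the list, CTNNB1 and CTNNA1 (β-catenin and α-catenin), were not called, with log2 fold changes of 0.16 and 0.10. The count for this list fell to 1 gene without a trend in the variance prior or without either IWP2 library, and to 2 without DMSO replicate 2, whereas 8 were called without DMSO replicate 1. CDH1 alone was called in all 4 such fits.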

How the data were processed

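RNA was extracted with TRIzol from 4 H1 samples (DMSO, n = 2; IWP2, n = 2), and libraries were made from 2 µg of total RNA with a TruSeq kit. The deposited values were taken as FPKM that the authors had normalized to transcript length and mapped fragments. The header names no unit, and the scale was inferred from the values. The submitters' processing notes name BWA, Bowtie and RSEM, with no versions, and hg19. The coordinates in the file are those of GRCh38, however: 55723 of 58365 versioned gene IDs occur in GENCODE 29, and 99.8% of these lie at the same position, so positions are given in GRCh38. The control columns are named only as lacking IWP2 and were taken as the DMSO group. That their numbers match the replicate numbers in the DMSO sample titles was assumed. Absolute depth is unknown, so no counting intervals are given; steps between low values put the relative depth of the 4 libraries at 1, 0.89, 1.1 and 0.95. The samples summed to 616418 to 653850 FPKM, with 13831 to 13926 genes at 1 FPKM or more. Among tested genes 1029 differed more than 1.5-fold between the DMSO replicates and 643 between the IWP2 replicates.

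Values were converted to log2(FPKM + 1), a pseudocount of 1. Genes with at least 1 FPKM in at least 2 samples (14278) were compared with limma 3.58.1 in R 4.3.3, using empirical Bayes moderation with a trend and Benjamini-Hochberg adjustment. The code was tested on simulated data. Alternatives were a pseudocount of 0.1, no filter or a filter at 5 FPKM, upper quartile scaling and quantile normalization. Others were no trend, a replicate block, a log2 fold change of at least 1, and leaving out each library. For single genes the count is over 11 alternatives, without the log2 fold change threshold.

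The 10 genes and all lists were chosen with earlier results of these data known. Besides the 10 genes, the text names from each of the lists of other Hippo genes, targets and junction genes the 4 called genes with the largest change in each direction and the 2 most highly expressed (mean over all 4 samples). Outside this rule it names 6 core kinase cascade genes for their role. It also names AXL, FJX1, ANKRD1, TJP1, LLGL2, FOXF2 and PTPN14 after their values were seen. Marker lists are given by counts and summed levels, with single marker genes named after their values were seen. Promoter sequences are from RefSeq (GRCh38.p14), 250 bases before each start, searched on both strands.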

Additional observations from a re-analysis of the deposited data

How the results depend on the processing

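TEAD1 was called in 10 of 11 alternatives (log2 fold change -1.45 to -1.12, adjusted p 0.00342 to 0.0770 by limma), TEAD3 in 6 and TEAD2 in 2. YAP1, TEAD4, LATS1, LATS2 and AMOTL2 were called in none, VGLL4 in 3 and WWTR1 in 1 (adjusted p = 0.0499, filter at 5 FPKM). Some settings had fewer samples or a larger number of genes tested, and the cause of the changes was not tested. With no filter on low values, 381 genes were called over 28917 tested, 0 of the 10 pathway genes, 0 other Hippo genes, 3 targets and 1 junction gene. The filter at 5 FPKM called 5 pathway genes. Without a trend in the prior, 1 junction gene was called. With a log2 fold change of at least 1 also required, 1065 genes passed both thresholds. Among them were 1 pathway gene (TEAD1), 4 other Hippo genes, 4 targets and 3 junction genes. The 4 other Hippo genes include VGLL3, which passed the filter through the IWP2 samples alone and so had to differ. Leaving out each library in turn gave 569 (without IWP2 replicate 1) to 1656 genes (without DMSO replicate 1), 1 pathway gene in each case (TEAD1), 1 to 5 other Hippo genes, 4 to 7 targets and 1 to 8 junction genes. The log2 fold change of LATS2 turned to 0.033 under both upper quartile scaling and quantile normalization, and ranged from -0.071 to 0.039 when libraries were left out (0.0046 without IWP2 replicate 2). That of AMOTL2 ranged from -0.31 (without DMSO replicate 2) to 0.33, with -0.08 without IWP2 replicate 1. Upper quartile scaling moved the split of calls to 1205 higher and 1143 lower, and quantile normalization to 1204 and 1154.

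Samples of the 2 groups share replicate numbers in the labels, and the control columns were assumed to carry the same numbers. The correlation of the differences between number 1 and number 2 across groups was 0.204 over genes, and with 2 numbers in each group this does not settle whether the numbers mark pairs. With a replicate block, 2238 genes (997 higher, 1241 lower) and 2 pathway genes (TEAD1, TEAD3) were called, and TEAD2 had an adjusted p of 0.0589. The depth of the libraries is unknown, so counting error could not be set beside these values.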
